A study of Mus musculus with 2 samples.

Results

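Pyroptosis and necroptosis are lytic forms of programmed cell death, and their genes were followed here in bone marrow (BM) myeloid cells of mice with severe aplastic anemia (SAA). The 10 genes were taken by symbol from the 31053 genes in the files: the sensors *Zbp1*, *Nlrp3* and *Aim2*, the adaptor *Pycard*, the caspases *Casp1*, *Casp4* and *Casp8*, the pore-forming protein gene *Gsdmd*, the kinase gene *Ripk3* and its substrate gene *Mlkl*. SAA mice were F1 hybrids of C57BL/6 and BALB/cAnN that received 300 rads from a 137Cs source and then 65000000 C57BL/6 splenocytes by intraperitoneal injection. Radiation controls (RC) were mice of the same cross given 300 rads and 0 splenocytes, so both groups carried the radiation, and the age of the mice and the day of harvest of these cells are not given in the sources used here. Live 7-AAD-CD11b+Ly6C+Ly6G- BM cells of 3 mice per group were sorted, pooled and made into 1 single-cell RNA sequencing (scRNA-seq) library per group.

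In pyroptosis a sensor such as NLRP3 or AIM2 gathers the adaptor ASC, the product of *Pycard*, and caspase-1 into an inflammasome. Caspase-1 matures interleukin-1β and interleukin-18 and cleaves gasdermin D, whose free end forms pores in the plasma membrane. Mouse *Casp4* encodes caspase-11, which binds cytosolic lipopolysaccharide and cleaves gasdermin D without an inflammasome sensor. In necroptosis RIPK3 phosphorylates MLKL, which then ruptures the membrane, and ZBP1 is a sensor of Z-form nucleic acids that can engage RIPK3. Caspase-8 starts apoptosis downstream of death receptors and holds RIPK3 in check. In myeloid cells several of these genes are known to be inducible by interferons or by signals through NF-κB.

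The SAA library held 5592265 UMIs in 825 barcodes and the RC library 4066589 UMIs in 798 barcodes, of which 729 and 662 had at least 1000 genes and were kept. A kept barcode was called monocyte-like where its unique molecular identifiers (UMIs, each standing for 1 captured transcript) of *Csf1r*, *Ccr2*, *F13a1*, *Ms4a6c* and *Ly86* outnumbered those of *Camp*, *Ngp*, *Fcnb*, *Cebpe*, *Elane*, *Mpo*, *Prtn3* and *Ctsg*, and granulocyte-like where the reverse held. There were 285 SAA and 342 RC monocyte-like barcodes, with medians of 6082 and 3347.5 UMIs, and 421 SAA and 318 RC granulocyte-like barcodes, with medians of 6849 and 6787.5 UMIs, and 23 SAA and 2 RC kept barcodes fell in neither class. Both classes held *Itgam* and *Ly6c2*, the genes of CD11b and of a Ly6C protein. Against the Ly6G- gate, *Ly6g* was at 134 CPM in SAA and 137 CPM in RC granulocyte-like barcodes, with 8 UMIs in SAA and 0 UMIs in RC monocyte-like barcodes (CPM, UMIs of a gene per 1000000 UMIs of the class). Granulocyte genes outside the rule summed to 2198 CPM in SAA and 735 CPM in RC monocyte-like barcodes, of which *Chil3*, a gene that monocytes also express, gave 1983 CPM in SAA and 607 CPM in RC. T cells, marked, by a definition set after the data were seen, by at least 2 UMIs of *Cd3e*, *Cd3g* and *Trac*, numbered 35 among kept SAA barcodes and 0 among kept RC barcodes.

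No test between SAA and RC was possible with 1 library each. CPM carry exact Poisson intervals, ratios of CPM exact conditional binomial intervals and shares of barcodes exact Clopper-Pearson intervals, all at 95%, and they cover counting error only, not the spread between mice. A gene with at least 20 UMIs over both groups compared was called higher or lower where its ratio passed 2-fold. Counts were made from the 5′ ends of transcripts and were not scaled by gene length.

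Promoter windows were looked up to see whether the members share sequence elements. RefSeq windows on GRCm38.p6, from 250 bases before to 50 bases after a gene's start, were found for 8 of the 10 members, in 10 windows; *Gsdmd* and *Zbp1* had no entry. Shown here are the 250 bases before the start for the 4 members with a window that were called higher in SAA in either class. Capitals mark matches to the NF-kB consensus on either strand, including 2 that overlap, and lower case marks all other bases.

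Casp4: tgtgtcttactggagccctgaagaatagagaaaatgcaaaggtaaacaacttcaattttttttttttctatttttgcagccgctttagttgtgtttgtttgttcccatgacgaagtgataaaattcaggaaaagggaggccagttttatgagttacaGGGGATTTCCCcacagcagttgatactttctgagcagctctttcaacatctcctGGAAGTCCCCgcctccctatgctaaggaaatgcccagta

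Casp1: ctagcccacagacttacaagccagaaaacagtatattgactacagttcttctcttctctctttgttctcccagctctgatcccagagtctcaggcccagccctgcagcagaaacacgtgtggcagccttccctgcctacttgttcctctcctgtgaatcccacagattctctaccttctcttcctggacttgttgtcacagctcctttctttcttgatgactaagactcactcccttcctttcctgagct

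Mlkl: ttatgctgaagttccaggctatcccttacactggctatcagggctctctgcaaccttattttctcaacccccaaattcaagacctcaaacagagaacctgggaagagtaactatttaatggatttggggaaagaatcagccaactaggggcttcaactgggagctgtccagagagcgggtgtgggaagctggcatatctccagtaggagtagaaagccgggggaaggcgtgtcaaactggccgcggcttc

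Ripk3: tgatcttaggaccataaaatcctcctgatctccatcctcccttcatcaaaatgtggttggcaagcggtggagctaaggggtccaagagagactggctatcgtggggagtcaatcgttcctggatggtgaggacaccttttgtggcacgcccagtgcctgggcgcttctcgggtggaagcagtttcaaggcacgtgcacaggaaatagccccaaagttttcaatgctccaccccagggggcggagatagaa

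The *Casp4* bases are chr9:5308599-5308848 on the plus strand, and the *Casp1* bases are chr9:5298267-5298516 on the plus strand. The *Mlkl* bases are chr8:111338206-111338455 and the *Ripk3* bases chr14:55788858-55789107, both on the minus strand and written along the gene. The *Casp4* matches began 93 and 39 bases before the start, and the neighbouring *Casp1* had no match in its window. The NF-kB consensus was present in 2 of the 8 members, *Casp4* and *Nlrp3*, and in 9.55% of all 27025 genes with a window (8.46% of 32851 windows), and this motif was added after the windows had been seen. The core of the interferon-stimulated response element, GAAANNGAAA on either strand, was in 0 of the 8 members and in 3.99% of all genes (3.44% of windows). The gamma-activated sequence TTCNNNGAA was in 0 of the 8 members and in 9.55% of all genes (8.30% of windows). A match is a description of the letters and not a bound site.

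In monocyte-like barcodes *Casp4*, *Mlkl*, *Ripk3* and *Zbp1* were at least 2-fold higher in SAA than in RC, which is 4 of the 10 members against 7.80% of 8662 genes with at least 20 UMIs. None of the 10 was at least 2-fold lower, against 8.67% of those genes. The median log2 ratio of the members was 0.84, beside -0.06 over all genes with that minimum, and 8 of the 10 ratios were above 1. In granulocyte-like barcodes *Casp1*, *Casp4* and *Zbp1* were at least 2-fold higher, 3 of the 9 members with at least 20 UMIs against 6.63% of 8812 genes. There 0 of the 9 were at least 2-fold lower, against 5.12% of the genes, and the members' median was 0.77 beside 0.04 over all genes. *Casp4* and *Zbp1* were the 2 members past 2-fold in both classes.

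**Figure D1:**
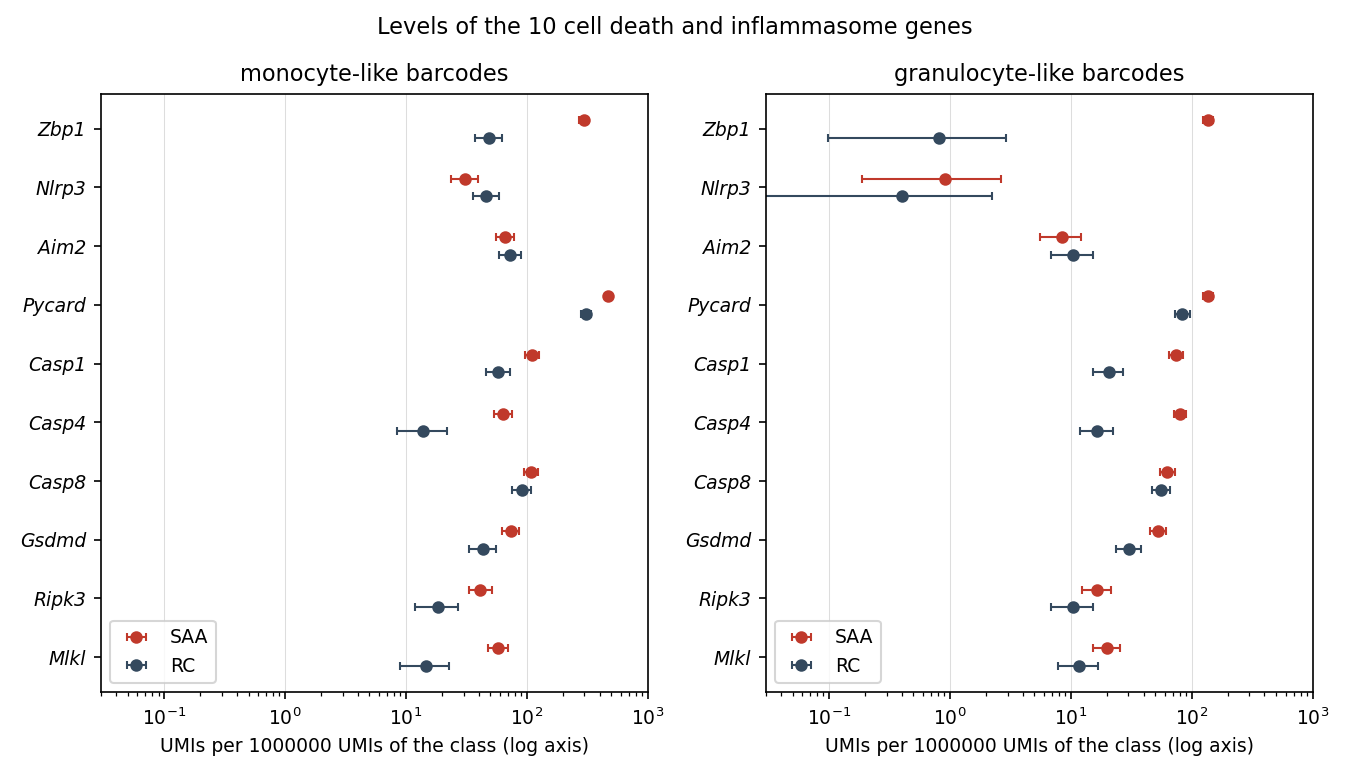
Levels of the 10 genes as UMIs per 1000000 UMIs of the class on log axes, in monocyte-like barcodes on the left and granulocyte-like barcodes on the right, with SAA in red above RC in dark blue and 95% Poisson intervals of the counts. *Zbp1* lies at 296 CPM in SAA and 48.6 CPM in RC monocyte-like barcodes, and at 137 CPM in SAA and 0.806 CPM in RC granulocyte-like barcodes, while *Casp8* and *Aim2* have overlapping intervals in both panels.

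*Zbp1* (chr2:173206612-173218923, minus strand, GRCm38 as all coordinates here), the nucleic acid sensor, differed most between the groups of all members. Monocyte-like barcodes held 600 UMIs in SAA (296 CPM, 273–320) and 66 UMIs in RC (48.6 CPM, 37.6–61.8), a ratio of 6.09 (4.72–7.97). Granulocyte-like barcodes held 454 UMIs in SAA (137 CPM, 125–150) and 2 UMIs in RC (0.806 CPM, 0.0977–2.91), a ratio of 169.8 with a counting interval of 46.7 to 1406. The order was therefore SAA monocyte-like, SAA granulocyte-like, RC monocyte-like and RC granulocyte-like, with no overlap of neighbouring intervals. The SAA to RC ratio in monocyte-like barcodes was 0.0359 times (0.00424–0.136) that in granulocyte-like barcodes, and 0.0195 to 0.111 times over 15 alternatives. The monocyte-like log2 ratio was 3.26 under stricter limits on genes and mitochondrial UMIs per barcode and 2.18 after thinning, against 2.61. The granulocyte-like log2 ratio was at least 5.36 after thinning, against 7.41, with RC at 0 UMIs and set to a floor of 3 UMIs. The value of 0.111 comes from that thinning and is an upper bound for the same reason. In SAA the granulocyte-like level of *Zbp1* was 0.463 of the monocyte-like level. Monocyte genes outside the rule pooled to 0.0593 of theirs, with a range of 0.0371 to 0.734 over 5 genes. The 0.734 was *Cx3cr1*, with 6 UMIs in granulocyte-like and 5 UMIs in monocyte-like barcodes (0.187–3.04). The highest of the rest was *Klf4* at 0.106. In RC the granulocyte-like level of *Zbp1* was 0.0166 (0.00197–0.0624) of the monocyte-like level. The same monocyte genes pooled there to 0.0111 of theirs, with a range of 0 to 0.0316, which the interval of *Zbp1* overlaps. *Zbp1* is also known as a type I interferon-stimulated gene.

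*Nlrp3* (chr11:59541568-59566956, plus strand), the inflammasome sensor of membrane and ion disturbance, was the member with the lowest SAA to RC ratio in monocyte-like barcodes. It had 62 UMIs in SAA (30.6 CPM, 23.4–39.2) and 63 UMIs in RC (46.4 CPM, 35.6–59.3), a ratio of 0.659 (0.457–0.951), within 2-fold. The intervals of the 2 levels overlapped, while that of the ratio lay below 1. Its rank depended on processing. After thinning, the log2 ratio of *Nlrp3* was -0.13, against -0.60 in the main setting, and that of *Aim2* was -0.14. Without barcodes that held both programmes *Nlrp3* was at -0.43 and *Aim2* at -0.60. Granulocyte-like barcodes held 3 UMIs in SAA and 1 UMI in RC, a ratio of 2.24 (0.180–118), so no difference was detectable at this depth. Of its UMIs in both classes, 62 of 65 in SAA and 63 of 64 in RC were in monocyte-like barcodes.

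*Aim2* (chr1:173350879-173466040, plus strand, overlapped on the other strand by *Cadm3*), the sensor of cytosolic double-stranded DNA and a member of the p200 family, did not differ beyond counting error in either class. Monocyte-like barcodes held 135 UMIs in SAA (66.6 CPM, 55.8–78.8) and 99 UMIs in RC (72.9 CPM, 59.2–88.7), a ratio of 0.913 (0.699–1.20). Granulocyte-like barcodes held 28 UMIs in SAA (8.44 CPM) and 26 UMIs in RC (10.5 CPM), a ratio of 0.805 (0.455–1.43). The intervals of SAA and RC overlapped in both classes, and both monocyte-like levels lay above both granulocyte-like levels.

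*Pycard* (chr7:127989708-127993867, minus strand), the gene of the adaptor ASC, was moderately higher in SAA in both classes. Monocyte-like barcodes held 954 UMIs in SAA (470 CPM, 441–501) and 418 UMIs in RC (308 CPM, 279–339), a ratio of 1.53 (1.36–1.72). Granulocyte-like barcodes held 450 UMIs in SAA (136 CPM, 123–149) and 208 UMIs in RC (83.9 CPM, 72.9–96.1), a ratio of 1.62 (1.37–1.92). The intervals of SAA and RC did not overlap in either class, and neither ratio reached 2-fold.

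*Casp1* (chr9:5298517-5307265, plus strand) encodes the protease of the inflammasome. Monocyte-like barcodes held 223 UMIs in SAA (110 CPM, 96.0–125) and 79 UMIs in RC (58.2 CPM, 46.0–72.5), a ratio of 1.89 (1.46–2.48). Granulocyte-like barcodes held 246 UMIs in SAA (74.2 CPM, 65.2–84.1) and 51 UMIs in RC (20.6 CPM, 15.3–27.0), a ratio of 3.61 (2.66–4.98). The intervals did not overlap in either class. The ratio in monocyte-like barcodes was 0.524 times (0.345–0.792) that in granulocyte-like barcodes, so by counting error alone the SAA to RC difference was the larger one in the granulocyte-like class.

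*Casp4* (chr9:5308828-5336783, plus strand) lies directly beside *Casp1* and encodes caspase-11. Monocyte-like barcodes held 130 UMIs in SAA (64.1 CPM, 53.5–76.1) and 19 UMIs in RC (14.0 CPM, 8.42–21.8), a ratio of 4.58 (2.82–7.86). Granulocyte-like barcodes held 266 UMIs in SAA (80.2 CPM, 70.9–90.5) and 41 UMIs in RC (16.5 CPM, 11.9–22.4), a ratio of 4.85 (3.48–6.92). The SAA and RC intervals lay far apart in both classes, and the ratio of the 2 ratios was 0.944 (0.512–1.79). *Casp4* was the only member whose level was lower in monocyte-like than in granulocyte-like barcodes, at 0.799 times (0.643–0.989) in SAA and 0.846 times (0.464–1.49) in RC.

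*Casp8* (chr1:58795374-58847503, plus strand), the caspase that starts death receptor apoptosis and restrains necroptosis, stayed within 2-fold in both classes, with ratio intervals that include 1. Monocyte-like barcodes held 219 UMIs in SAA (108 CPM, 94.1–123) and 123 UMIs in RC (90.6 CPM, 75.3–108), a ratio of 1.19 (0.952–1.499). Granulocyte-like barcodes held 209 UMIs in SAA (63.0 CPM, 54.8–72.2) and 138 UMIs in RC (55.6 CPM, 46.8–65.7), a ratio of 1.13 (0.909–1.41). The intervals overlapped in both classes.

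*Gsdmd* (chr15:75862327-75867408, plus strand), the gene of the pore former gasdermin D, was higher in SAA by less than 2-fold. Monocyte-like barcodes held 149 UMIs in SAA (73.5 CPM, 62.1–86.2) and 59 UMIs in RC (43.4 CPM, 33.1–56.0), a ratio of 1.69 (1.24–2.33). Granulocyte-like barcodes held 175 UMIs in SAA (52.8 CPM, 45.2–61.2) and 75 UMIs in RC (30.2 CPM, 23.8–37.9), a ratio of 1.75 (1.32–2.32). The SAA intervals lay above the RC intervals in both classes.

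*Ripk3* (chr14:55784995-55788865, minus strand), the kinase of necroptosis, was at 84 UMIs in SAA (41.4 CPM, 33.0–51.3) and 25 UMIs in RC (18.4 CPM, 11.9–27.2) in monocyte-like barcodes, a ratio of 2.25 (1.43–3.67). In granulocyte-like barcodes it was at 55 UMIs in SAA (16.6 CPM, 12.5–21.6) and 26 UMIs in RC (10.5 CPM, 6.85–15.4), a ratio of 1.58 (0.975–2.63). The intervals were apart in the monocyte-like class and overlapped in the granulocyte-like class, and the ratio of the 2 ratios was 1.42 (0.708–2.85), with an interval that includes 1. Its monocyte-like ratio was the closest to 2-fold of the 4 called, at a log2 ratio of 0.92 without barcodes that held both programmes.

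*Mlkl* (chr8:111311797-111338177, minus strand) encodes the executor of necroptosis. Monocyte-like barcodes held 118 UMIs in SAA (58.2 CPM, 48.2–69.7) and 20 UMIs in RC (14.7 CPM, 8.99–22.7), a ratio of 3.95 (2.45–6.70). Granulocyte-like barcodes held 66 UMIs in SAA (19.9 CPM, 15.4–25.3) and 29 UMIs in RC (11.7 CPM, 7.83–16.8), a ratio of 1.70 (1.08–2.73). The intervals were apart in monocyte-like barcodes and overlapped in granulocyte-like barcodes. The ratio in monocyte-like barcodes was 2.32 times (1.16–4.68) that in granulocyte-like barcodes, and 1.73 to 2.76 times over 15 alternatives, lowest after thinning.

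**Figure D2:**
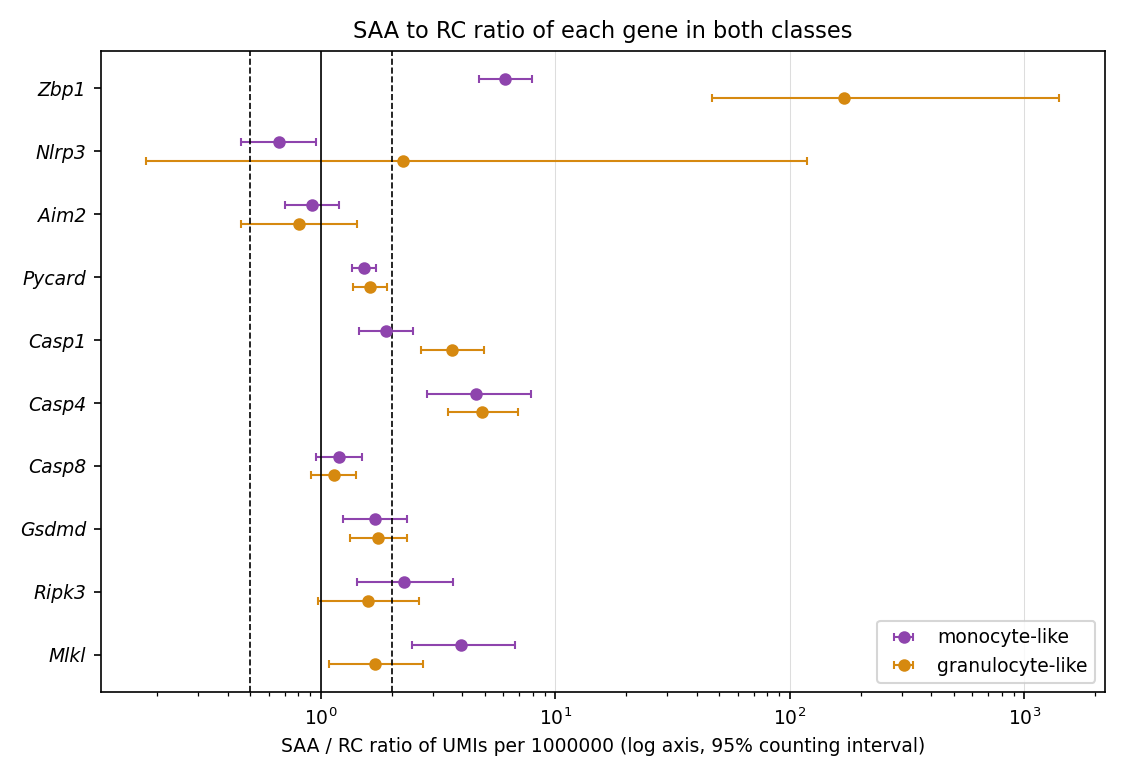
SAA to RC ratio of UMIs per 1000000 for each gene on a log axis, with monocyte-like barcodes in purple above granulocyte-like barcodes in orange, 95% counting intervals, a solid line at 1 and dashed lines at 0.5 and 2. *Casp4* and *Zbp1* lie to the right of 2 in both classes, *Mlkl* and *Ripk3* only in monocyte-like barcodes and *Casp1* only in granulocyte-like barcodes, and the interval of *Nlrp3* in granulocyte-like barcodes spans 0.180 to 118.

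Between the classes, 6 of the 10 members were at least 2-fold higher in monocyte-like than in granulocyte-like barcodes of SAA, against 20.05% of 9084 genes, and 0 were at least 2-fold lower, against 8.99%. In SAA the ratios were 33.8 (11.0–168) for *Nlrp3*, 7.88 (5.22–12.3) for *Aim2*, 3.47 (3.10–3.89) for *Pycard*, 2.92 (2.14–4.01) for *Mlkl*, 2.50 (1.76–3.57) for *Ripk3* and 2.16 (1.91–2.45) for *Zbp1*. In RC 5 of the 10 were at least 2-fold higher, against 23.5% of 8695 genes, and 0 were at least 2-fold lower, against 9.73%. These were *Nlrp3* at 115 (19.9–4614), *Zbp1* at 60.2 (16.0–508), *Aim2* at 6.95 (4.48–11.2), *Pycard* at 3.67 (3.10–4.35) and *Casp1* at 2.83 (1.96–4.10). The sensors and the adaptor were thus higher in the monocyte-like class of both libraries. *Casp8* stood at 1.71 in SAA and 1.63 in RC, and *Gsdmd* at 1.39 in SAA and 1.44 in RC, within 2-fold of each other between the classes. Over all genes with the minimum of UMIs the log2 ratio had a median of 0.33 in SAA and 0.38 in RC. TMM scaling, which moved all class ratios by -0.37 and -0.40 on the log2 scale, left 4 members past 2-fold in SAA and 5 in RC. The share of all genes past 2-fold after that scaling is not given here, so these counts have no matching background.

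Monocyte-like barcodes were divided into cycling ones, with at least 1 UMI of 10 cell cycle genes per 1000 UMIs, and non-cycling ones. Cycling barcodes made up 135 of 285 in SAA (47.4%) and 93 of 342 in RC (27.2%), so the classes compared above differed in their makeup. Near the limit, between 0.5 and 2 UMIs per 1000, lay 25 SAA and 6 RC cycling and 18 SAA and 7 RC non-cycling barcodes. *Zbp1* was at 289 CPM in SAA and 24.8 CPM in RC cycling barcodes, a ratio of 11.6 (6.85–21.5). In non-cycling barcodes *Zbp1* was at 307 CPM in SAA and 65.5 CPM in RC, a ratio of 4.68 (3.46–6.45). *Casp4* kept a ratio near 5 in both, 4.97 (2.004–15.9) in cycling and 5.38 (3.02–10.3) in non-cycling barcodes. *Mlkl* was at 62.8 CPM in SAA and 24.8 CPM in RC cycling barcodes, a ratio of 2.53 (1.42–4.85), and at 51.2 CPM in SAA and 7.56 CPM in RC non-cycling barcodes, a ratio of 6.77 (2.86–19.5). *Ripk3* was past 2-fold in non-cycling barcodes, at 3.47 (1.68–7.85), and not in cycling ones, at 1.504 (0.829–2.89). The 2 intervals overlapped, and the difference was not tested.

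*Casp1* had the reverse order, at 2.91 (1.85–4.79) in cycling and 1.46 (1.03–2.08) in non-cycling barcodes. *Gsdmd* was at 1.48 (0.917–2.48) in cycling and 2.06 (1.37–3.16) in non-cycling barcodes. *Aim2* was at 72.5 CPM in SAA and 51.3 CPM in RC cycling barcodes, a ratio of 1.41 (0.920–2.23), and at 57.4 CPM in SAA and 88.2 CPM in RC non-cycling barcodes, a ratio of 0.651 (0.439–0.958). *Nlrp3* likewise was at 0.921 (0.526–1.66) in cycling and 0.507 (0.289–0.866) in non-cycling barcodes, where it had 22 UMIs in SAA and 43 UMIs in RC. Thus the 2 inflammasome sensors had fewer transcripts per 1000000 in SAA in non-cycling barcodes, by less than 2-fold. *Pycard* at 1.46 and 1.501 and *Casp8* at 1.16 and 1.22 were within 2-fold in both.

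Granulocyte-like barcodes were divided into early ones, in which *Elane*, *Mpo*, *Prtn3* and *Ctsg* outnumbered *Camp* and *Ngp*, and late ones. Early barcodes numbered 33 of 421 in SAA and 51 of 318 in RC. The 2 sums lay within 2-fold of each other in 7 SAA and 9 RC early and in 8 SAA and 9 RC late barcodes. In late barcodes *Zbp1* had 387 UMIs in SAA and 1 UMI in RC, *Casp4* a ratio of 6.41 (4.20–10.2), *Casp1* a ratio of 4.11 (2.84–6.135) and *Ripk3* a ratio of 2.62 (1.33–5.645). In early barcodes *Zbp1* had 67 UMIs in SAA and 1 UMI in RC, *Casp4* a ratio of 2.62 (1.44–4.96) and *Casp1* a ratio of 2.94 (1.66–5.41). *Pycard* was past 2-fold in early barcodes, at 309 CPM in SAA and 126 CPM in RC (ratio 2.46, 1.84–3.30), and not in late ones, at 107 CPM in SAA and 71.3 CPM in RC (ratio 1.496, 1.22–1.85). *Ripk3* in early barcodes had 12 UMIs in SAA and 15 UMIs in RC.

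**Figure D3:**
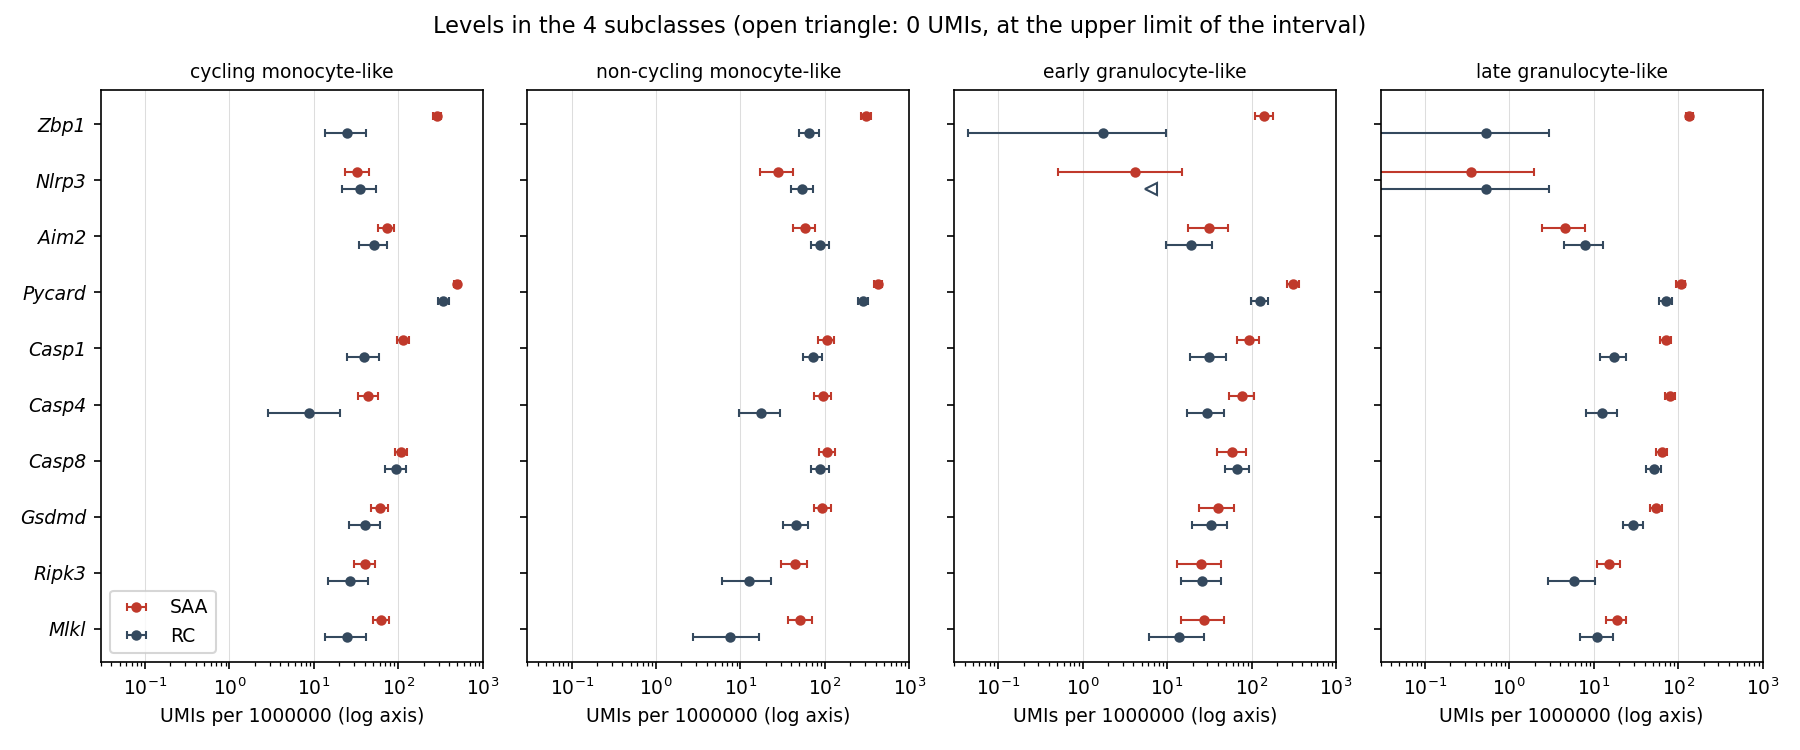
Levels of the 10 genes as UMIs per 1000000 on log axes in cycling monocyte-like, non-cycling monocyte-like, early granulocyte-like and late granulocyte-like barcodes, with SAA in red above RC in dark blue, 95% Poisson intervals and an open triangle at the upper limit where a group held 0 UMIs. *Zbp1* and *Casp4* of SAA lie to the right of RC in all 4 panels, and *Nlrp3* is near 0 UMIs in both granulocyte-like panels.

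Shares of barcodes with a UMI were compared after each barcode was thinned at random to 2600 UMIs, since SAA monocyte-like barcodes were deeper. Thinning left out 18 SAA and 76 RC monocyte-like barcodes, and 8 SAA and 1 RC granulocyte-like barcodes. A UMI of *Zbp1* was then found in 55.1% (48.9–61.1%) of SAA and 12.8% (9.02–17.4%) of RC monocyte-like barcodes, against 76.1% and 14.6% before thinning. In granulocyte-like barcodes it was found in 32.2% (27.7–36.9%) of SAA barcodes and in 0 of 317 RC barcodes. Before thinning 244 of 421 SAA and 2 of 318 RC granulocyte-like barcodes held one, with at most 8 UMIs in 1 barcode, so *Zbp1* was spread over many SAA barcodes. *Casp4* was found in 17.2% (12.9–22.3%) of SAA and 5.26% (2.91–8.67%) of RC monocyte-like barcodes and in 19.9% (16.1–24.0%) of SAA and 5.68% (3.40–8.83%) of RC granulocyte-like barcodes. *Mlkl* was found in 13.1% (9.30–17.8%) of SAA and 3.38% (1.56–6.325%) of RC monocyte-like barcodes. *Nlrp3* was found in 8.24% (5.24–12.2%) of SAA and 10.9% (7.42–15.3%) of RC monocyte-like barcodes, with overlapping intervals. Before thinning these 3 genes were found in 35.1% of SAA and 5.26% of RC monocyte-like barcodes for *Casp4*, 28.4% of SAA and 5.26% of RC for *Mlkl*, and 18.2% of SAA and 16.96% of RC for *Nlrp3*.

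The 35 T-marked SAA barcodes, with a median of 5417 UMIs, gave a reference for free RNA. *Nlrp3*, which T cells are not known for, was in 0 of them, which by the 3 counts that a 0 allows limits the share of barcodes with a UMI to 8.57%, and *Lyz2*, an abundant myeloid gene, was in 2. *Zbp1* was in 9 (25.7% before thinning) and *Casp4* in 5 (14.3%), both of which T cells can express. After thinning the T-marked shares were 14.3% (4.03–32.7%) for *Zbp1*, with an interval below that of SAA monocyte-like barcodes and overlapping that of SAA granulocyte-like barcodes, and 10.7% (2.27–28.2%) for *Casp4*, with an interval that overlaps those of both SAA classes. Of these 35 barcodes, 6 were also monocyte-like and 8 granulocyte-like by the class rule. RC held no T-marked barcode, so the same reference was not available there.

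**Figure D4:**
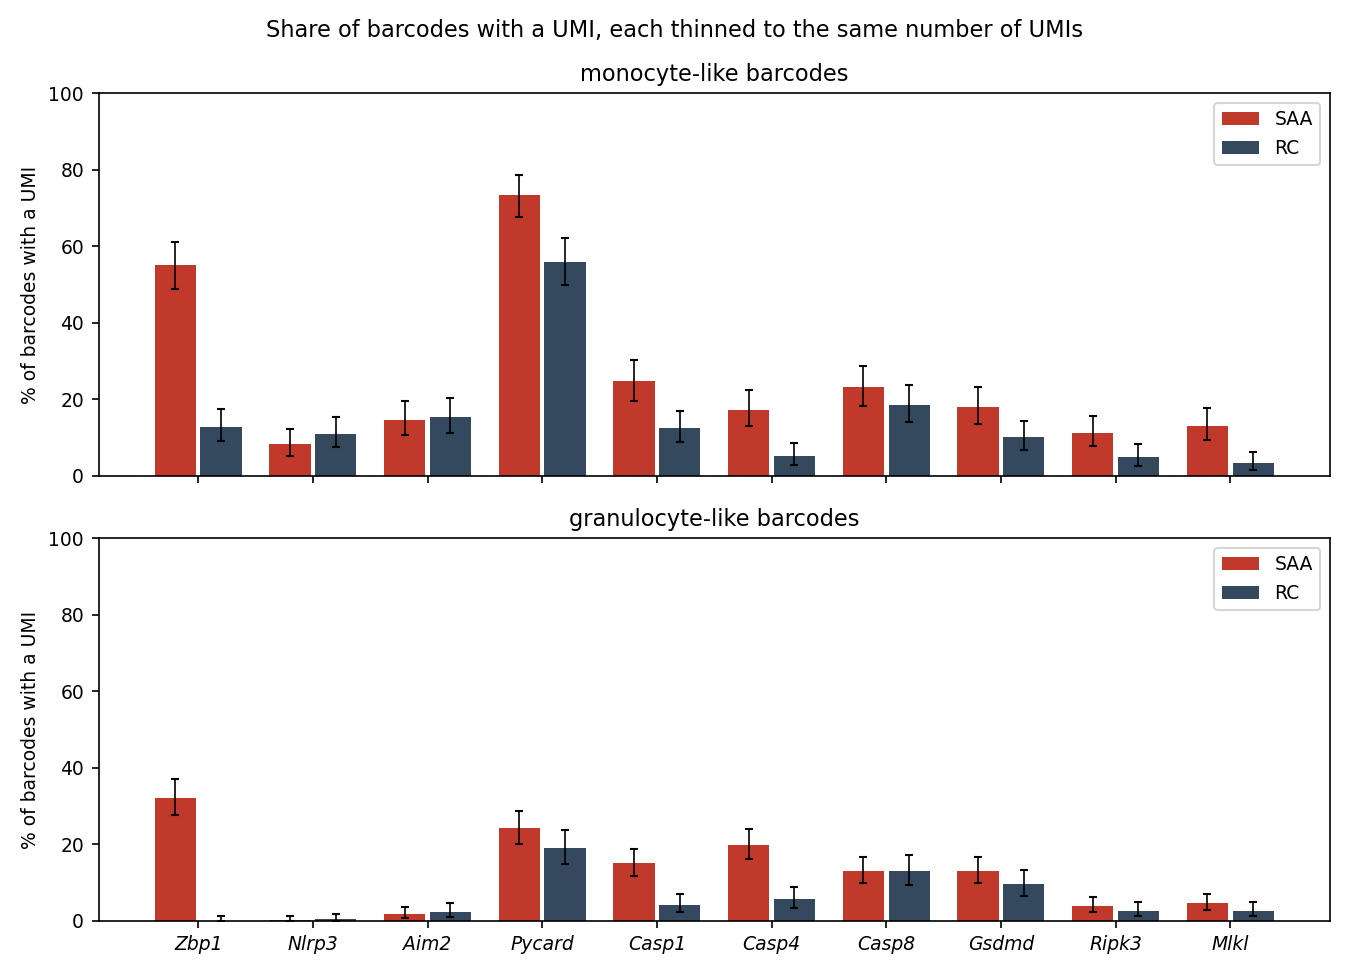
Share of barcodes with at least 1 UMI of each gene, in percent, after thinning to 2600 UMIs, for monocyte-like barcodes in the upper and granulocyte-like barcodes in the lower panel, with SAA bars in red left of RC bars in dark blue and exact binomial 95% intervals. *Zbp1* bars reach 55.1% in SAA and 12.8% in RC monocyte-like barcodes, and 32.2% in SAA and 0 in RC granulocyte-like barcodes.

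Members were also counted together within single barcodes. Of the 10 genes, the median monocyte-like barcode held 4 in SAA and 2 in RC, and after thinning 22.1% of SAA and 5.26% of RC monocyte-like barcodes held at least 4. All of *Zbp1*, *Ripk3* and *Mlkl*, the necroptosis set, were found in 19 of 285 SAA (6.67%, 4.06–10.2%) and 0 of 342 RC monocyte-like barcodes, and in 8 of 421 SAA and 0 of 318 RC granulocyte-like barcodes. After thinning they were together in 2 SAA barcodes of each class and 0 RC barcodes, too few to compare. *Gsdmd* with *Casp1* or *Casp4*, the pyroptosis pair, was found in 81 of 285 SAA (28.4%, 23.3–34.0%) and 12 of 342 RC monocyte-like barcodes (3.51%, 1.83–6.05%). After thinning that pair was in 21 of 267 SAA (7.87%, 4.93–11.8%) and 8 of 266 RC monocyte-like barcodes (3.01%, 1.31–5.84%), with overlapping intervals, and in 16 of 413 SAA and 2 of 317 RC granulocyte-like barcodes. *Nlrp3*, *Pycard* and *Casp1* were together in 31 SAA and 5 RC monocyte-like barcodes, and in 3 SAA and 1 RC barcodes after thinning.

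Several measures of the makeup of the classes differed between the groups. Barcodes that held both programmes, with the smaller rule sum at least 20% of the larger, numbered 87 of 285 in SAA and 35 of 342 in RC monocyte-like barcodes. Without them the monocyte-like log2 ratios were 2.52 for *Zbp1*, 2.14 for *Casp4*, 2.30 for *Mlkl*, 0.92 for *Ripk3* and -0.60 for *Aim2*. Without the T-marked barcodes, 6 of them monocyte-like and 8 granulocyte-like, the monocyte-like log2 ratios were 2.62 for *Zbp1*, 2.21 for *Casp4*, 2.0 for *Mlkl* and 1.17 for *Ripk3*. With both subclasses of a class weighted equally they were 2.72 for *Zbp1*, 2.39 for *Casp4*, 1.82 for *Mlkl* and 1.09 for *Ripk3*. In granulocyte-like barcodes without the T-marked ones, the log2 ratio was 7.43 for *Zbp1*, 2.30 for *Casp4* and 1.88 for *Casp1*. Markers of macrophages, all 6 of 6 detected in SAA and 4 of 6 in RC monocyte-like barcodes, summed to 188 CPM in SAA and 68.5 CPM in RC. Higher in SAA than in RC were *C1qa* (29.6 and 0.736 CPM), *C1qb* (66.6 and 0 CPM), *C1qc* (32.0 and 0 CPM) and *Vcam1* (5.42 and 1.47 CPM). Lower in SAA were *Adgre1* (50.8 and 56.7 CPM) and *Mrc1* (3.94 and 9.57 CPM). The part of these markers in the results was not tested.

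Of 75 further genes of these pathways in 8 lists, 58 had at least 20 UMIs in monocyte-like barcodes, of which 9 were at least 2-fold higher and 7 at least 2-fold lower in SAA, beside 7.80% and 8.67% of all genes, and the log2 ratios had a median of 0.12. In granulocyte-like barcodes 53 had the minimum, of which 9 were higher and 2 lower, beside 6.63% and 5.12% of all genes, with a median of 0.31. Among 18 other inflammasome sensors and regulators, 12 were measured in monocyte-like barcodes, 0 were higher and 3 were lower. These were *Txnip*, a thioredoxin-binding protein that can activate NLRP3, at 255 UMIs in SAA and 454 UMIs in RC (ratio 0.376, 0.321–0.4395), and the flagellin receptor genes *Naip5* (0.353, 0.244–0.507) and *Naip6* (0.356, 0.228–0.5475), close paralogs between which reads can be split. In granulocyte-like barcodes all 10 measured were within 2-fold, among them *Pstpip1*, a partner of pyrin, at 1.16 (0.965–1.40).

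Of 7 genes of interleukin-1 family cytokines and their antagonists, 5 were measured in monocyte-like and 3 in granulocyte-like barcodes, of which 3 and 2 were higher. *Il18bp*, the secreted binding protein that neutralises interleukin-18, had 188 UMIs in SAA and 0 UMIs in RC monocyte-like barcodes, at least 41.97-fold higher against a floor of 3 UMIs, the one-sided 95% limit of a count of 0, and 306 UMIs in SAA and 17 UMIs in RC granulocyte-like barcodes (ratio 13.5, 8.27–23.4). *Il1r2*, the decoy receptor of interleukin-1, had 61 UMIs in SAA and 0 UMIs in RC monocyte-like barcodes, at least 13.6-fold higher against that floor, and 195 UMIs in SAA and 21 UMIs in RC granulocyte-like barcodes (ratio 6.95, 4.42–11.5). *Il1rn*, the receptor antagonist, had 28 UMIs in SAA and 6 UMIs in RC monocyte-like barcodes (ratio 3.125, 1.27–9.23) and was within 2-fold in granulocyte-like barcodes, with 31 UMIs in SAA and 15 UMIs in RC (1.55, 0.810–3.08). The caspase-1 substrates, chosen for mention after their values were seen, were within 2-fold in monocyte-like barcodes, *Il1b* with 30 UMIs in SAA and 15 UMIs in RC (1.34, 0.698–2.68) and *Il18* with 22 UMIs in SAA and 21 UMIs in RC (0.702, 0.368–1.34). In granulocyte-like barcodes both were under the minimum, *Il1b* with 1 UMI in SAA and 0 UMIs in RC and *Il18* with 1 UMI in each.

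In a list of membrane rupture genes, other gasdermins and the membrane repair genes *Chmp4b*, *Chmp3* and *Vps4b*, 5 of 10 were measured in either class. *Ninj1*, which ruptures the membrane after pore formation, was lower in SAA at 0.433 (0.301–0.619) in monocyte-like and 0.374 (0.204–0.665) in granulocyte-like barcodes, and *Gsdme*, another gasdermin, was at 0.497 (0.277–0.880) in monocyte-like barcodes. The protease-inhibiting serpins went both ways. *Serpinb9*, the inhibitor of granzyme B, had 33 UMIs in SAA and 1 UMI in RC monocyte-like barcodes (ratio 22.1, 3.70–899) and 22 UMIs in SAA and 0 UMIs in RC granulocyte-like barcodes (at least 5.485-fold higher against that floor). *Serpinb1a*, an inhibitor of neutrophil proteases that belongs to a family of close paralogs, was at 0.381 (0.241–0.594) in monocyte-like barcodes. *Serpinb2* was lower at 0.128 (0.0517–0.275) in monocyte-like and 0.374 (0.156–0.837) in granulocyte-like barcodes.

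Of 12 death receptor, adaptor and ligand genes, 8 were measured in either class, and in monocyte-like barcodes the ligand genes *Tnf*, with 30 UMIs in SAA and 6 UMIs in RC (3.35, 1.37–9.84), and *Tnfsf10*, with 20 UMIs in SAA and 4 UMIs in RC (3.35, 1.12–13.5), were higher. In granulocyte-like barcodes all 8 were within 2-fold, among them the TNF receptor gene *Tnfrsf1a* at 1.26 (1.05–1.52). All 12 genes of a list of regulators of necroptosis and caspase-8 were measured, mostly brakes but also *Cyld*, which is known to promote necroptosis, with 1 higher in monocyte-like barcodes, the deubiquitinase gene *Tnfaip3* at 69 UMIs in SAA and 7 UMIs in RC (6.60, 3.04–17.03). In granulocyte-like barcodes 2 were higher, *Adar*, whose RNA editing limits ZBP1 ligands, at 2.64 (1.97–3.60) and *Rnf31*, a subunit of the linear ubiquitin ligase, at 2.44 (1.44–4.32). All apoptotic caspase genes measured, 6 in monocyte-like and 5 in granulocyte-like barcodes, were within 2-fold, among them *Apaf1*, the apoptosome scaffold, at 1.04 (0.814–1.33) and 1.42 (1.17–1.74).

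Of 6 transcription factor genes known to act on these loci, all were measured and 2 were higher in monocyte-like barcodes, among them *Irf1*, an interferon regulatory factor gene, with 501 UMIs in SAA and 52 UMIs in RC (6.45, 4.84–8.76). In granulocyte-like barcodes 4 of the 6 were higher, among them *Irf1* at 7.66 (5.46–11.0) and *Irf9*, a subunit of the factor that binds interferon-stimulated response elements, at 8.09 (5.22–13.2). The plot of companion genes shows these ratios by list.

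**Figure D5:**
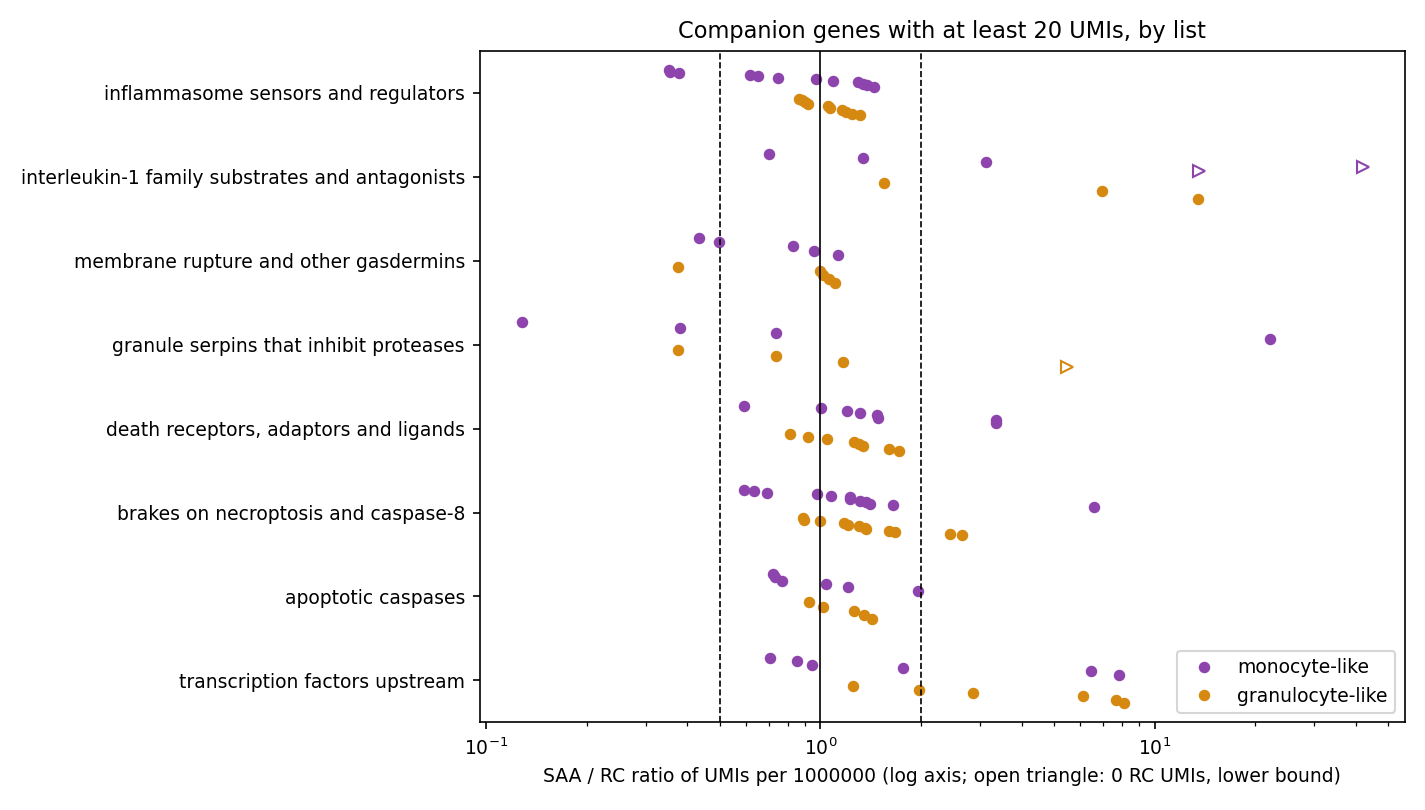
SAA to RC ratio of UMIs per 1000000 on a log axis for the 75 companion genes that had at least 20 UMIs, by list from top to bottom, with monocyte-like barcodes in purple above granulocyte-like barcodes in orange, a solid line at 1, dashed lines at 0.5 and 2, and open triangles for lower bounds where RC held 0 UMIs. Most genes lie between the dashed lines, 42 of 58 in monocyte-like and 42 of 53 in granulocyte-like barcodes.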

How the data were processed

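Sorted BM cells of SAA and RC mice were measured by 10x 5′ v2 scRNA-seq, with 1 library per group from 3 pooled mice. The deposited values are raw counts of UMIs per gene and barcode, made by the authors with Cell Ranger 6.0.1 against mm10 per the submitters' processing notes, and whether counting used strand is not given in the sources used here. Barcodes with under 1000 genes were removed, as the study did, and no kept barcode held over 25% mitochondrial UMIs. Doublets were not called; barcodes holding both programmes or above the 99th percentile of UMIs were left out as alternatives. The libraries shared 1 barcode sequence. UMIs were summed per class and divided by the class total, 2028301 in SAA and 1358365 in RC monocyte-like and 3315632 in SAA and 2479896 in RC granulocyte-like barcodes. The floor for a count of 0 was 3 UMIs, and thinning used the 10th percentile of UMIs, rounded down. With no replicates no p-value was computed. The intervals were run on simulated Poisson counts without spread between barcodes or mice, so that run checks the computation only.

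The members, class rule and lists were chosen with earlier results of these data known. All members were named, and of each companion list at most 3 genes per class and direction past 2-fold with the most UMIs, or, where none was, the gene with the most UMIs. A gene that this rule selects is not reported here. Coordinates are from GENCODE on GRCm38, which held 30934 of the gene identifiers, and promoter windows from RefSeq. Protein sequences were not used here. Python 3.11.15, numpy 2.4.6, scipy 1.17.1, pandas 2.3.3, matplotlib 3.10.9 and edgeR 4.0.16 (TMM factors only) were used. Alternatives changed the barcode filter, class rule, scaling, weighting, depth and UMI minimum; 3 were added after the data had been seen.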

Additional observations from a re-analysis of the deposited data

Results flagged for a closer look

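The SAA to RC ratio differed between the classes for 3 members by its counting interval, although not by any test over mice, since each group had 1 library. For *Zbp1* the monocyte-like ratio was 0.0359 times (0.00424–0.136) the granulocyte-like ratio, and RC granulocyte-like barcodes held 2 UMIs of it. That value ranged from 0.0195 to 0.111 over 15 alternatives. The 0.111, after thinning, is an upper bound, since RC granulocyte-like barcodes were there set to the floor of 3 UMIs. For *Casp1* the monocyte-like ratio was 0.524 times (0.345–0.792) the granulocyte-like ratio, and for *Mlkl* 2.32 times (1.16–4.68). Over 15 alternatives these values ranged from 0.417 to 0.587 for *Casp1* and from 1.73 to 2.76 for *Mlkl*. The 1.73 came from thinning, where the granulocyte-like log2 ratio of *Mlkl* was 1.76, against 0.77.

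Barcodes with under 1000 genes numbered 96 in SAA and 136 in RC, with medians of 1316 and 1640 UMIs. Above they entered only the alternative without a minimum of genes, and they held a signal of 2 members. *Zbp1* had 26 UMIs in SAA (187 CPM, 122–274) and 8 UMIs in RC (36.004 CPM, 15.5–70.9), a ratio of 5.196 (2.28–13.3). *Casp4* had 16 UMIs in SAA (115 CPM, 65.8–187) and 6 UMIs in RC (27.0 CPM, 9.91–58.8), a ratio of 4.26 (1.58–13.3). The SAA intervals of both genes lay above the RC intervals. These ratios pool the classes. With no minimum of genes the monocyte-like class went from 285 to 321 barcodes in SAA and from 342 to 436 in RC. The granulocyte-like class went from 421 to 462 in SAA and from 318 to 350 in RC. The makeup of barcodes with under 1000 genes thus differed between the libraries, and its part in the ratios was not tested.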

How the results depend on the processing

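Over 17 alternatives, of which 3 were added once the data were known, the number of members at least 2-fold higher in SAA was 3 to 5 in monocyte-like and 3 to 5 in granulocyte-like barcodes, and none was at least 2-fold lower. Shares over all genes are given for the main setting only, so the counts under the alternatives have no matching background. The granulocyte-like count was 5, against 3, without T or NK-marked barcodes, where *Gsdmd* and *Mlkl* also passed 2-fold, and 5 after thinning, where *Mlkl* and *Ripk3* did and the members' median log2 ratio was 1.39, with 8 members left at the minimum of UMIs. With TMM factors the median log2 ratio of monocyte-like over granulocyte-like barcodes in SAA was 0.85. *Zbp1* and *Casp4* stayed past 2-fold in both classes, *Mlkl* in monocyte-like and *Casp1* in granulocyte-like barcodes, under all 15 alternatives that apply to single genes. *Ripk3* in monocyte-like barcodes passed in 12 of 15, falling to a log2 ratio of 0.92 without barcodes of both programmes, and *Casp1* in monocyte-like barcodes reached 1.09 under the stricter barcode filter. *Pycard* in granulocyte-like barcodes reached a log2 ratio of 1.08 with both subclasses weighted equally, against 0.69. Its lowest value was 0.41, where only barcodes with high rule sums were kept. TMM moved the monocyte-like SAA to RC ratios by 0.10 on the log2 scale. *Zbp1* in granulocyte-like barcodes had a log2 ratio of at least 5.36 after thinning, against 7.41, with the floor of 3 UMIs in RC. In monocyte-like barcodes its log2 ratio was 3.26 under the stricter filter and 2.18 after thinning, against 2.61. Of 583 values of single members, 575 kept their sign and no called value changed sign. The T or NK cell list was carried by *Nkg7*, with 784 UMIs in SAA and 981 UMIs in RC granulocyte-like barcodes, while *Cd3e*, *Cd3g* and *Trac* were at 0 UMIs in RC. The limit of 25% mitochondrial UMIs removed no barcode. No paired analysis was possible because each group is 1 library. Depth limits *Nlrp3* in granulocyte-like barcodes, with 4 UMIs in all, and every interval here leaves out the differences between mice.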

Other observations

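In the 35 T-marked SAA barcodes the members were at 305 CPM (231–394) for *Pycard*, 73.5 CPM (40.2–123) for *Casp8*, 52.5 CPM (25.2–96.6) for *Zbp1*, 42.01 CPM (18.1–82.8) for *Aim2* and 36.8 CPM (14.8–75.7) for *Gsdmd*. *Casp4* was there at 26.3 CPM (8.53–61.3), *Casp1* at 21.0 CPM (5.72–53.8), *Ripk3* at 15.8 CPM (3.25–46.0) and *Mlkl* at 10.5 CPM (1.27–37.9), while *Nlrp3* had 0 UMIs. The *Zbp1* interval lay below that of SAA monocyte-like and of SAA granulocyte-like barcodes, at 296 and 137 CPM.

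Of the other members in barcodes with under 1000 genes, *Gsdmd* had 1 UMI in SAA and 10 UMIs in RC (ratio 0.160, 0.00368–1.12). There *Aim2* had 3 UMIs in SAA and 14 UMIs in RC (0.343, 0.0631–1.23). Both intervals include 1, and both ratios pool the classes, whose makeup differed between the libraries. *Casp12*, a further gene of the *Casp1* and *Casp4* neighbourhood named after its values were seen, had 13 UMIs in SAA and 0 UMIs in RC monocyte-like barcodes, under the minimum of 20 UMIs.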
